A study of Homo sapiens with 6 samples.

Results

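The expression of 9 genes of the complement system was followed in TPC-1 cells with and without added *RRM2*. They are the complement components *C1R*, *C1S*, *C3* and *CFB*, the C5a receptor gene *C5AR1*, the soluble regulator gene *CFI*, and *CD46*, *CD55* and *CD59*, whose products shield a cell's own surface. All 9 were found by symbol among the 58735 genes of the deposited expression table, and 5 of the 9 were above the minimum level set for testing, which 13621 genes passed. The 9 genes were chosen by name with their FPKM in these 6 libraries already known. Their differences are therefore given as values with no test.

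The line TPC-1 was derived from a human papillary thyroid carcinoma. The control group held 3 libraries of wild strain TPC-1, which were not infected. The *RRM2*-OE-TPC-1 group held 3 libraries of the same line, infected with lentivirus from vector LV18, in which a CMV promoter drives full-length *RRM2*, and then selected with puromycin. No library of cells with an empty vector was analysed here, so added *RRM2*, infection and selection with puromycin cannot be told apart. Both groups were grown in the same medium with fetal bovine serum. The methods describe biological triplicates, and whether the infected cells were a pool or a clone is not given in the sources used here. The genotype labels of 2 *RRM2*-OE-TPC-1 libraries, replicates 2 and 3, read RRM3 and RRM4 under titles that name *RRM2*.

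Complement is a cascade of plasma and tissue proteases made mainly by the liver and also by epithelial cells and macrophages. C1r and C1s start the classical pathway, factor B forms the alternative pathway convertase, and every pathway meets at C3, which is cleaved and coats its target. The anaphylatoxin C5a, cut from C5, signals through the G protein-coupled receptor C5aR1, best known from neutrophils and macrophages. CD46 is the cofactor by which factor I cleaves C3b and C4b, CD55 speeds the decay of convertases, and CD59 blocks the membrane attack complex.

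The plot of each gene's FPKM (fragments scaled by gene length and library depth) gives the pattern. In *RRM2*-OE-TPC-1, *C5AR1* was close to absent and *C3* was at 0.347 times its level in TPC-1, whereas the 3 surface shields *CD46*, *CD55* and *CD59* were within 1.31-fold of their levels. *C1R*, *C1S* and *CFI* were at low levels in TPC-1 and lower in *RRM2*-OE-TPC-1, and *CFB* had more than 3 reads in 1 of 6 libraries.

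**Figure D1:**
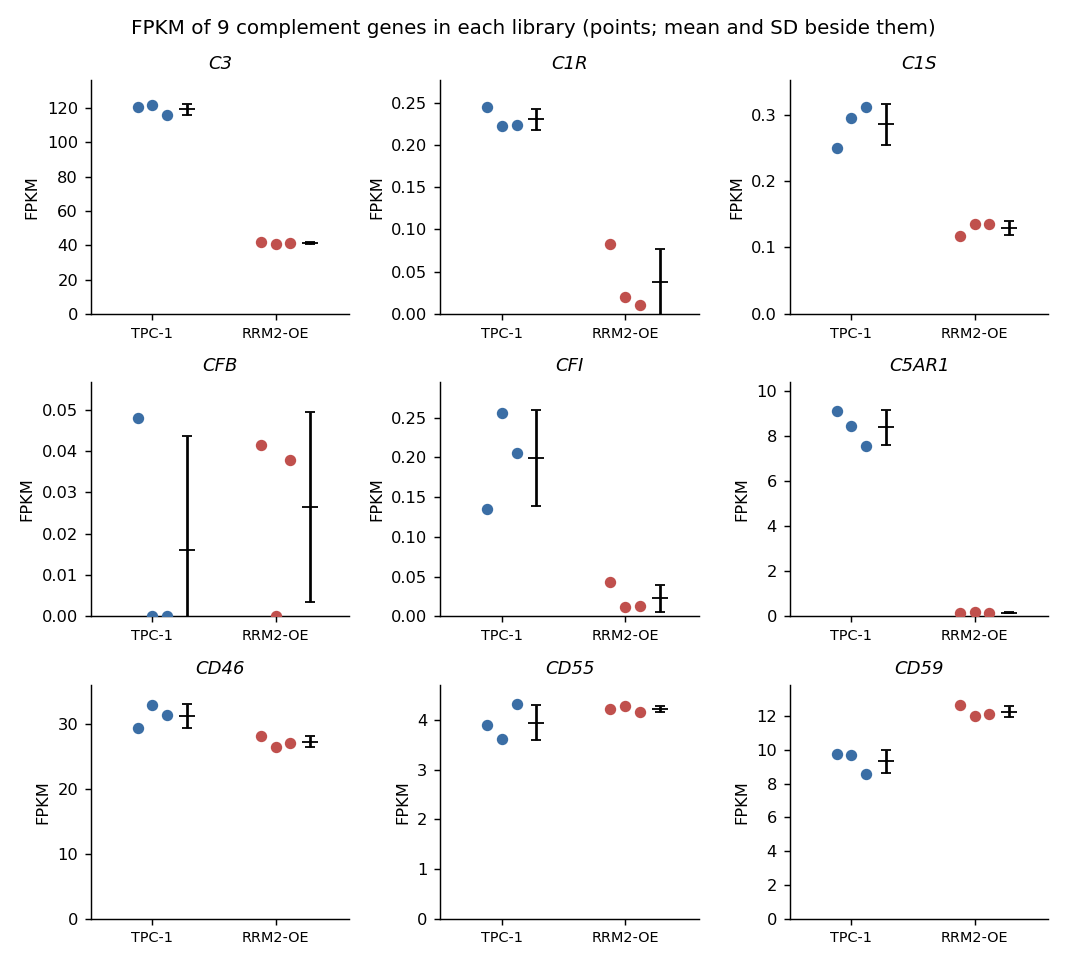
FPKM of the 9 genes in 3 TPC-1 libraries (blue) and 3 *RRM2*-OE-TPC-1 libraries (red, marked RRM2-OE), each panel on its own linear axis from 0, with the mean and SD of 3 libraries beside the points. *C5AR1* lies between 7.57 and 9.14 FPKM in TPC-1 and between 0.141 and 0.198 in *RRM2*-OE-TPC-1, while the points of *CD55* overlap between the groups.

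RefSeq holds promoter windows for 7 of the 9 genes on GRCh38.p14, and not for *C3* and *C1S*. The 250 bases before the start annotated by RefSeq are shown for *C5AR1*, *CD46* and *CD59*. They stand for the largest difference, a small difference downward and a small difference upward among the genes above the minimum. No base of the *C5AR1* and *CD46* windows and 12 bases of the *CD59* window lie in exons of GENCODE 29. GENCODE 29 starts *C5AR1* upstream of its window, at chr19:47290023, so that window lies inside the gene as counted, between its exons. Capitals mark matches on either strand to 6 motifs: CCAAT, the TATA box TATAAA, the GC box GGGCGG, the STAT palindrome TTCNNNGAA, the AP-1 site TGANTCA and the E box CACGTG. The windows are *C5AR1* at chr19:47309611-47309860 on the plus strand, *CD46* at chr1:207751788-207752037 on the plus strand, and *CD59* at chr11:33736480-33736729 on the minus strand. They run 5′ to 3′ in the direction of the gene.
C5AR1: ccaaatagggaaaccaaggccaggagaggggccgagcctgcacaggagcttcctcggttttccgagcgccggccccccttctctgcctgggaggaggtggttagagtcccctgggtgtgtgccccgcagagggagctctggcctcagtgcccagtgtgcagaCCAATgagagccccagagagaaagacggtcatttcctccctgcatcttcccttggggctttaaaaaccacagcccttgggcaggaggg
CD46: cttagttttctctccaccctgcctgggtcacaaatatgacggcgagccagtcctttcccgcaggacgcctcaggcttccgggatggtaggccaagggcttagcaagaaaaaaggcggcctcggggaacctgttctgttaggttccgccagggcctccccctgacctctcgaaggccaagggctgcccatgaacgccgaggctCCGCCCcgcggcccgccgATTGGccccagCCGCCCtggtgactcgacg
CD59: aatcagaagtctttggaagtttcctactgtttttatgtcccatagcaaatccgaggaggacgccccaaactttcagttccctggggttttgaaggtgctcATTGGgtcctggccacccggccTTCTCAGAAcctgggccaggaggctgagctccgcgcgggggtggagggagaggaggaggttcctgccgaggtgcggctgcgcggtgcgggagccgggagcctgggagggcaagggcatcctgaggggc
The *C5AR1* window held a CCAAT box that began 88 bases before the start and none of the other motifs. The *CD46* window held a CCAAT box 30 bases before the start and 2 GC boxes at 48 and 19 bases. The *CD59* window held a CCAAT box at 150 bases and a STAT palindrome at 128 bases. Over the 35116 windows of this length, 32.0% held CCAAT, 42.6% GGGCGG, 6.57% TTCNNNGAA, 10.7% TATAAA, 6.57% TGANTCA and 6.34% CACGTG. The *C5AR1* window had 7 CpG and the *CD46* window 19, against a median of 11 over all windows. *CD46* has 2 windows and *CD59* has 4 in the table, and the first of each is shown.

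Whole reads could be recovered from the deposited FPKM, since each value times the gene length was a whole multiple of a fixed step in 100% of cases within 0.01. The libraries held 14317091 to 17084067 reads on genes, of which mitochondrial genes took 4.29% to 5.89%. *RRM2*, the gene added, had 9.17, 9.05 and 8.52 FPKM in TPC-1 replicates 1 to 3 and 50.4, 47.5 and 47.2 FPKM in *RRM2*-OE-TPC-1, a log2 fold change of 2.43 (SE 0.0442, limma adjusted p = 1.11e-08). Of the thyroid transcription factors, *PAX8* averaged 69.3 FPKM in TPC-1 against 58.5 in *RRM2*-OE-TPC-1, *FOXE1* 4.30 against 3.19 FPKM and *HHEX* 2.47 against 4.61 FPKM, and *NKX2-1* was at 0. The thyrocyte genes *TG*, *TSHR* and *SLC5A5* had at most 20 reads in any library. The 6 epithelial markers summed to 42.9 to 47.1 FPKM against 88.4 to 90.8 FPKM, nearly all of it *KRT18*, with *EPCAM* and *KRT19* at no more than 5 reads. *KRT8* averaged 2.56 FPKM in TPC-1 against 3.48 in *RRM2*-OE-TPC-1, whereas *KRT7* averaged 1.18 against 1.01 FPKM. *CDH1* had 7, 9 and 8 reads in TPC-1 against 4, 6 and 5 in *RRM2*-OE-TPC-1. The 10 myeloid markers summed to 0.578 to 0.873 FPKM in TPC-1 and 0.285 to 0.413 in *RRM2*-OE-TPC-1, and *LYZ*, *MPO* and *TYROBP* had no read in any library. The 8 hepatocyte markers summed to 0.130 to 0.265 FPKM and 0.0418 to 0.0660 FPKM, with *APOA2*, *APOB* and *TTR* at 0 throughout. The 6 fibroblast markers summed to 2.78 to 3.16 FPKM and 2.78 to 2.94 FPKM, and 3 of them, *COL1A2*, *COL3A1* and *DCN*, were at 0. Fewer cells with a transcript and less transcript in each cell cannot be told apart in bulk RNA.

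*C5AR1* (ENSG00000197405, chr19:47290023-47322066, plus strand) encodes the receptor for C5a. It had 9.14, 8.46 and 7.57 FPKM in TPC-1 replicates 1 to 3, from 450, 420 and 356 reads. In *RRM2*-OE-TPC-1 it had 0.141, 0.198 and 0.170 FPKM, from 6, 10 and 8 reads. Every *RRM2*-OE-TPC-1 library was far below every TPC-1 library. The means were 8.39 ± 0.786 and 0.170 ± 0.0286 FPKM (SD, n = 3 each), and the difference was -4.98 (SE 0.126) on the scale of log2(FPKM + 0.1). The added 0.1 holds that fold down to 31.5-fold. Pooled over each group and scaled by the authors' depth, the 1226 reads of TPC-1 stood 49.1-fold above the 24 reads of *RRM2*-OE-TPC-1, with an exact 95% counting interval of 32.8 to 76.9. That interval, like the others from pooled reads below, covers counting error only. *C5AR1* was above the minimum of 0.5 FPKM and 10 reads in 3 libraries only through the TPC-1 group. Of the myeloid markers, *PTPRC* had at most 1 read per library. *CD14* had 11 to 13 reads per library in TPC-1 against 3 to 5 in the infected cells and *FCER1G* 2 to 6 against 0 to 2, whereas *ITGAM* had 0 to 2 against 5 to 8 and *CSF1R* 3 to 7 against 3 to 9. The part of these markers in the difference of *C5AR1* was not tested. By mean FPKM *C5AR1* ranked 5017 of the 13621 genes in TPC-1 against 13565 in *RRM2*-OE-TPC-1.

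The second C5a receptor gene, *C5AR2*, lies beside it on the chromosome and had 1 read over all 6 libraries. *C3AR1*, the receptor gene for C3a, is outside the rule for named genes and had 22 reads in all in TPC-1 against 19 in *RRM2*-OE-TPC-1. Their ratio of *RRM2*-OE-TPC-1 over TPC-1 in pooled reads was 0.899 with a counting interval of 0.460 to 1.74, which does not separate the groups at this depth. In TPC-1, *C5AR1* was thus the anaphylatoxin receptor gene with most of the reads. In *RRM2*-OE-TPC-1 its 6 to 10 reads per library were about as few as the 4 to 8 reads of *C3AR1*.

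*C3* (ENSG00000125730, chr19:6677704-6730562, minus strand) encodes the protein on which all pathways meet. It had 121, 122 and 116 FPKM in TPC-1 and 41.7, 41.0 and 41.4 FPKM in *RRM2*-OE-TPC-1. The groups lay far apart, and the 3 libraries within each group were close together. The means were 119 ± 3.06 and 41.4 ± 0.328 FPKM (SD, n = 3 each), a log2 difference of -1.53 (SE 0.0318), or 2.88-fold lower. With 15382 to 17038 reads per library in TPC-1, it took 0.104% of all reads on genes, and 0.0346% in *RRM2*-OE-TPC-1. It ranked 226 of 13621 genes by mean FPKM in TPC-1 against 932 in *RRM2*-OE-TPC-1, and was the highest of the 9 genes in both groups.

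*CFB* (ENSG00000243649, chr6:31945650-31952084, plus strand), the alternative pathway partner of C3b, was near 0 in both groups. It had 4, 0 and 0 reads in TPC-1 and 3, 0 and 3 reads in *RRM2*-OE-TPC-1. Of its 6 libraries, only TPC-1 replicate 1 had more than 3 reads, so no fold is given. GENCODE 29 places 45.0% of its exonic bases also in the read-through gene *AL645922.1*, which was at 0 in every library, and reads shared by overlapping genes may have been dropped in counting.

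The serine proteases *C1R* and *C1S*, which with C1q form the first component of the classical pathway, were below the minimum in both groups. *C1R* (ENSG00000159403, chr12:7080199-7092607, minus strand) had 24, 22 and 21 reads in TPC-1 and 7, 2 and 1 reads in *RRM2*-OE-TPC-1, which are 0.244, 0.222 and 0.224 FPKM against 0.0823, 0.0198 and 0.0107 FPKM. The groups did not overlap. Pooled, *C1R* was 6.44-fold higher in TPC-1 with a counting interval of 3.29 to 14.04. *C1S* (ENSG00000182326, chr12:6988259-7071032, plus strand) had 27, 32 and 32 reads in TPC-1 against 11, 15 and 14 in *RRM2*-OE-TPC-1, or 0.285 ± 0.0312 FPKM against 0.130 ± 0.0104 FPKM (SD, n = 3 each). Here too the groups did not overlap, and pooled *C1S* was 2.19-fold higher in TPC-1 with an interval of 1.49 to 3.26.

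The level of *C1R* is uncertain, since 672 of its exonic bases, 11.4% of its length, are shared with *C1RL* on the same strand, and *C1RL* had a mean of 6.93 FPKM over the 6 libraries against 0.134 for *C1R*. *C1S* shares 229 bases, 3.54% of its length, with *EMG1*, which averaged 8.04 FPKM. The part of these overlaps in the values of *C1R* and *C1S* was not tested. *C1QA*, *C1QB* and *C1QC*, which encode the recognition subunits that C1r and C1s bind, had no read in any library.

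*CFI* (ENSG00000205403, chr4:109740694-109802179, minus strand) encodes factor I, the protease that inactivates C3b and C4b. It had 11, 21 and 16 reads in TPC-1 against 3, 1 and 1 in *RRM2*-OE-TPC-1. The lowest TPC-1 library was above the highest *RRM2*-OE-TPC-1 library. In FPKM it had 0.135, 0.256 and 0.206 against 0.0426, 0.0120 and 0.0129, and pooled it was 9.23-fold higher in TPC-1 with a counting interval of 3.69 to 29.7. With 5 reads in all in *RRM2*-OE-TPC-1, the size of that ratio is loose. GENCODE 29 also places 32.0% of its exonic bases in *AC126283.2*, which was at 0.

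**Figure D2:**
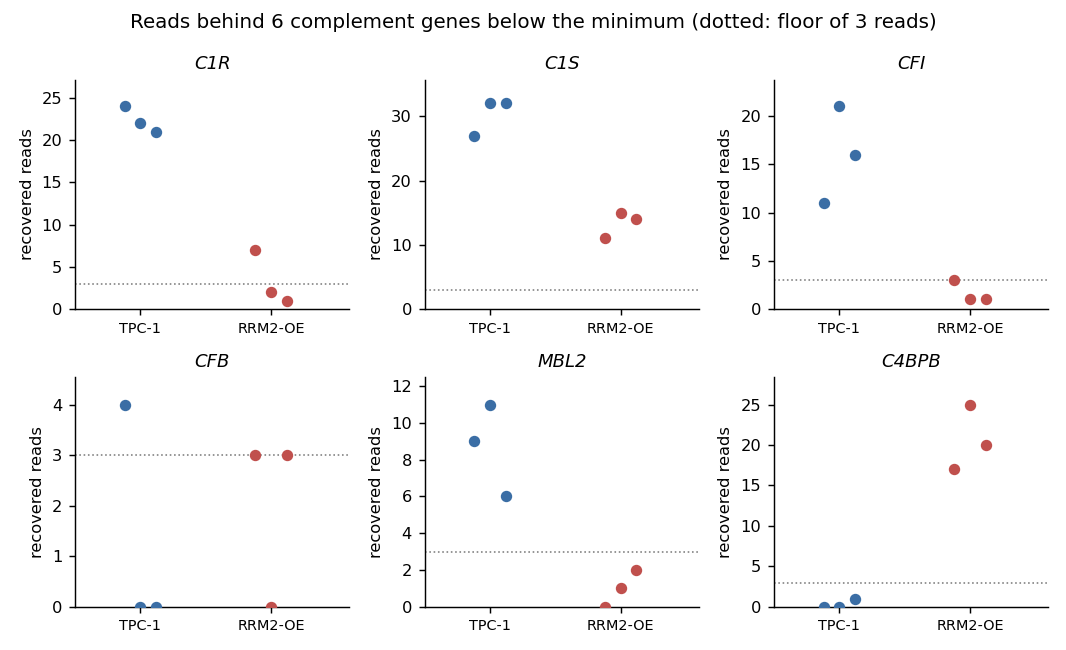
Recovered reads of 6 complement genes below the minimum in each TPC-1 library (blue) and each *RRM2*-OE-TPC-1 library (red, marked RRM2-OE), with the floor of 3 reads dotted. *C1R*, *C1S*, *CFI* and *MBL2* have more reads in every TPC-1 library, *C4BPB* has 17 to 25 reads in *RRM2*-OE-TPC-1 against 0 or 1, and *CFB* overlaps.

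The 3 surface regulators were held at similar levels in both groups. *CD46* (ENSG00000117335, chr1:207752057-207795513, plus strand) had 29.3, 33.0 and 31.4 FPKM in TPC-1 against 28.2, 26.5 and 27.0 in *RRM2*-OE-TPC-1. The groups did not overlap, but the highest *RRM2*-OE-TPC-1 library was only just under the lowest TPC-1 library, and the log2 difference was -0.19 (SE 0.0489). *CD55* (ENSG00000196352, chr1:207321376-207386804, plus strand) had 3.90, 3.61 and 4.32 FPKM in TPC-1 against 4.22, 4.28 and 4.16 in *RRM2*-OE-TPC-1. Its groups overlapped, and its log2 difference of 0.10 had an SE of 0.0766. *CD59* (ENSG00000085063, chr11:33703010-33736491, minus strand) had 9.72, 9.67 and 8.54 FPKM in TPC-1 against 12.6, 12 and 12.1 in *RRM2*-OE-TPC-1. It was higher in each *RRM2*-OE-TPC-1 library than in any TPC-1 library, by 0.39 (SE 0.0592) on the log2 scale, or 1.31-fold.

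A gene is named as called below where limma gave an adjusted p under 0.05 and an absolute log2 fold change over 1. As a description only, 2 of the 5 genes above the minimum lay past both thresholds, *C3* and *C5AR1*, of which *C5AR1* entered through the TPC-1 group alone. The same thresholds called 11.5% of all 13621 tested genes, 4.48% higher and 6.97% lower. The groups did not overlap in 4 of the 5 genes, against 72.2% of all tested genes. The 9 genes were chosen on this contrast, so these counts are no test of them and nothing is read from them. With any 1 of the 3 TPC-1 libraries left out, *C5AR1* was under the minimum and the count was 1. The 5 genes had a median log2 fold change of -0.19, and all tested genes one of 0.01.

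FPKM is scaled by gene length, so levels can be ordered roughly within a group. The places of *C1R*, *C1S*, *CFI* and *CFB* are uncertain, since reads in exons shared with other genes may have been dropped in counting. In TPC-1 the order was *C3*, *CD46*, *CD59*, *C5AR1*, *CD55*, *C1S*, *C1R*, *CFI* and *CFB*. The ranges over libraries overlapped between the neighbours *CD59* and *C5AR1* and between *C1R* and *CFI*, and these pairs are not told apart. *C1S*, at 0.250 to 0.311 FPKM, was only just above *C1R*, at 0.222 to 0.244 FPKM. In *RRM2*-OE-TPC-1, *CD55* stood above *C5AR1*, and *C1R*, *CFB* and *CFI* formed a lowest group whose ranges overlapped. Summed over the 9 genes, the level was 168 to 177 FPKM in TPC-1 and 84.2 to 87.1 FPKM in *RRM2*-OE-TPC-1. That difference lay mainly in *C3*, with means of 119 and 41.4 FPKM. By contrast, *CD46*, *CD55* and *CD59* averaged 31.2, 3.95 and 9.31 FPKM in TPC-1 against 27.2, 4.22 and 12.2 FPKM in *RRM2*-OE-TPC-1.

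The other genes of the system were taken from a list of 58 complement genes, of which 49 were not among the 9. Of these 49, 15 had no read in any library and 10 were tested. By limma, 4 of the 10 were called lower and 0 were called higher, beside 6.97% and 4.48% of all tested genes. At the adjusted p alone, which 67.6% of all tested genes passed, 7 were lower and 2 higher. Of those 2, *ITGB2* met the FPKM minimum in 3 libraries only with those of *RRM2*-OE-TPC-1. The median log2 fold change of the 10 genes was -0.79. With a pseudocount of 1 in place of 0.1, 2 of them, *C1RL* and *CLU*, were called lower. The count of 0 called higher was also 0 with voom, and 2 genes were higher at an unadjusted p under 0.05.

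**Figure D3:**
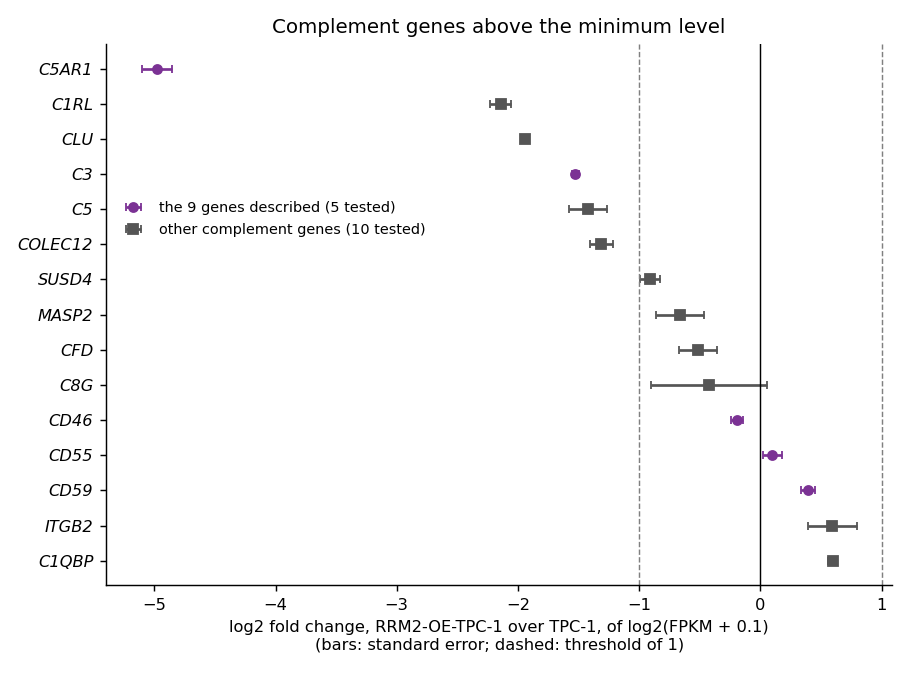
Log2 fold change of *RRM2*-OE-TPC-1 over TPC-1 on the log2(FPKM + 0.1) scale with its standard error, for the 5 tested genes of the 9 (purple circles) and the 10 other complement genes tested (grey squares), with dashed lines at -1 and 1. *C5AR1* stands at -4.98, 4 of the grey squares lie below -1, and no gene lies above 1.

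The most abundant of these genes in TPC-1 was *CLU*, which encodes clusterin, an inhibitor of membrane attack complex assembly and an abundant chaperone. It averaged 340 ± 6.24 FPKM in TPC-1 against 88.3 ± 1.01 FPKM in the infected cells (SD, n = 3 each). It fell by 1.94 on the log2 scale (SE 0.0317, limma adjusted p = 9.81e-09). *SERPING1*, the gene of the C1 inhibitor, had no read in any library.

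*C1RL*, a protease gene next to *C1R* and similar to it, had 11, 11.5 and 11.5 FPKM in TPC-1 against 2.53, 2.20 and 2.79 in *RRM2*-OE-TPC-1. It fell by 2.14 on the log2 scale (SE 0.0853, limma adjusted p = 3.86e-07). It shares 205 exonic bases with *C1RL-AS1* on the other strand, and the strand setting of the counting is not given in the sources used here. *C5*, which encodes the precursor of the C5aR1 ligand, had 1.68, 1.91 and 1.83 FPKM in TPC-1 against 0.710, 0.483 and 0.663 in *RRM2*-OE-TPC-1. Its log2 fold change was -1.42 (SE 0.154, limma adjusted p = 7.57e-05). *COLEC12*, a scavenger receptor of the collectin family, had a mean of 3.50 ± 0.230 FPKM in TPC-1 and one of 1.35 ± 0.0934 FPKM (SD, n = 3 each) in the infected cells, and fell by 1.31 on the log2 scale (SE 0.0935, limma adjusted p = 7.1e-06). The groups did not overlap in any of these 4 called genes, nor in 72.2% of all tested genes, and a call itself makes that likely.

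*SUSD4*, which encodes a membrane regulator with complement control repeats, was lower by less than the threshold, with a log2 fold change of -0.91 (SE 0.0825, limma adjusted p = 2.61e-05). *MASP2*, the protease gene of the lectin pathway, stood at -0.66 (SE 0.199, limma adjusted p = 0.0178), and *CFD*, which encodes the protease that activates factor B, at -0.52 (SE 0.154, limma adjusted p = 0.0176). Neither stayed under 0.05 throughout. For *MASP2* the limma adjusted p was 0.0646 without TPC-1 replicate 2 and 0.0821 with no filter on low values, and its value was -0.33 with a pseudocount of 1. For *CFD* it was 0.0533 and 0.0581 when replicate 1 or 3 of TPC-1 was left out, and 0.0683 with no filter. *C8G* had 2 to 13 reads per library and a log2 fold change of -0.43 (SE 0.478, limma adjusted p = 0.452). *ITGB2*, the shared chain of the receptors CR3 and CR4, stood at 0.59 (SE 0.200, limma adjusted p = 0.029) and at 0.26 with a pseudocount of 1. It met the FPKM minimum in 3 libraries only with those of *RRM2*-OE-TPC-1, where it is high. In FPKM it had 0.397, 0.630 and 0.406 in TPC-1 against 0.753, 0.678 and 0.850 in *RRM2*-OE-TPC-1. Its limma adjusted p was 0.0724 with the FPKM minimum alone and 0.131 with no filter. It lay from 0.0609 to 0.0890 when replicate 1 or 3 of either group was left out. *C1QBP*, a mitochondrial protein that also binds C1q, stood at 0.60 (SE 0.0365, limma adjusted p = 3.07e-06) and reached 97.1 FPKM in *RRM2*-OE-TPC-1.

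Below the minimum, *MBL2*, the mannose-binding lectin gene named after its values were seen, had 9, 11 and 6 reads in TPC-1 against 0, 1 and 2 in *RRM2*-OE-TPC-1. *C4BPB*, the beta chain of the C4b-binding protein, went the other way, with 0, 0 and 1 reads in TPC-1 against 17, 25 and 20 in *RRM2*-OE-TPC-1. Pooled, the ratio of *RRM2*-OE-TPC-1 over TPC-1 for *C4BPB* was 64.5 with an exact counting interval of 11.2 to 2589, which rests on the 1 read in TPC-1. *C4BPA*, the gene of the alpha chain with which it is assembled, had 3 reads in TPC-1 replicate 1 and none elsewhere.

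*C5AR1* signals through inhibitory G proteins and arrestins. A list of 14 genes held these partners, another G protein alpha subunit, receptor kinases, phospholipases C and subunits of a phosphoinositide 3-kinase. Of the 10 tested, 0 were called higher and 1 lower, by limma as by voom, where limma called 4.48% and 6.97% of all tested genes. At an unadjusted p under 0.05, 7 were higher and 2 lower, where 67.6% of all tested genes passed even the adjusted p. Among the 7 was *GRK5*, which met the FPKM minimum only through the *RRM2*-OE-TPC-1 group, where it is high. It had 0.419, 0.425 and 0.466 FPKM in TPC-1 against 0.623, 0.792 and 0.565 in *RRM2*-OE-TPC-1. The gene called lower, *ARRB1*, which encodes beta-arrestin 1, had 9.14 ± 0.478 FPKM in TPC-1 against 4.50 ± 0.140 FPKM in the infected cells (SD, n = 3 each). The log2 fold change of -1.004 (SE 0.0575, limma adjusted p = 2.23e-06) lay at the threshold itself, and was -0.96 when TPC-1 replicate 1 was left out, -0.98 when *RRM2*-OE-TPC-1 replicate 3 was left out and -0.88 with a pseudocount of 1. The median of the 10 genes, *GRK5* included, was 0.28. Of 11 other chemoattractant receptor genes, 3 were tested and 1 was called. *FPR1*, the formyl peptide receptor gene, had 8.02, 7.38 and 7.21 FPKM in TPC-1 against 2.16, 2.36 and 2.37 in *RRM2*-OE-TPC-1, a log2 fold change of -1.67 (SE 0.0707, limma adjusted p = 5.21e-07).

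*CD55* and *CD59* are held on the membrane by a GPI anchor, and 28 of 29 genes of GPI anchor synthesis were tested. By limma 0 were called in either direction, and by voom 1 was called lower. Of all tested genes, limma called 4.48% higher and 6.97% lower, and 67.6% passed the adjusted p alone. At the adjusted p alone as at an unadjusted p under 0.05, 6 were higher and 9 lower, and the log2 fold changes ran from -0.99 to 0.74 around a median of -0.04. *C3* and *CFB* are also known as genes of the acute phase response in liver. Of 20 other acute phase genes, 5 were tested, 2 were called higher and 0 lower, by limma as by voom, and 1 was lower at an unadjusted p under 0.05. The same shares of all tested genes, 4.48% called higher and 6.97% lower, stand beside these counts. *SAA1*, the serum amyloid A gene, had 16.0, 12.5 and 18.0 FPKM in TPC-1 against 48.2, 45.6 and 44.3 in *RRM2*-OE-TPC-1, a log2 fold change of 1.58 (SE 0.117, limma adjusted p = 8.69e-06), opposite to that of *C3*. *SAA2* stood at 1.16 (SE 0.272, limma adjusted p = 0.00553), from 9 to 48 reads per library. It met the FPKM minimum in 3 libraries only with those of *RRM2*-OE-TPC-1, where it is high. Its value was 0.998 when *RRM2*-OE-TPC-1 replicate 2 was left out, 0.90 when TPC-1 replicate 2 was left out and 0.51 with a pseudocount of 1. The 2 genes are near-identical copies, so that the split of reads between them is uncertain. The 5 tested genes had 3 positive and 2 negative log2 fold changes. *SERPINA1*, named after its values were seen, stood at -0.83 (SE 0.0858, limma adjusted p = 5.73e-05), lower like *C3*. Below the minimum, *HP* had 14, 25 and 12 reads in TPC-1 against 1, 0 and 0 in *RRM2*-OE-TPC-1. *HPX* had 6, 4 and 6 reads against 23, 11 and 9. Both were also named after their values were seen.

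The neighbours of the genes within 500 kb, by the distance between gene starts on the genome, were set beside them. Their counts stand beside the 6.97% of all tested genes called lower and 4.48% called higher. Around *C5AR1*, 16 genes were tested, of which 2 were called lower and 1 higher, with a median log2 fold change of 0.05. The lowest of them, *MEIS3*, stood at -2.82 and lay 113 kb away, while the next lowest, *ARHGAP35*, was at -1.08, both named after their values were seen. Around *C3*, 15 genes were tested and 4 were called lower, with a median of -0.44. Among these 4 was *AC008760.2*, a sense-intronic transcript of *C3* named after its values were seen, at -1.65 (SE 0.306), whose reads cannot be told apart from unspliced *C3* RNA. Around *C1R*, 29 genes were tested, 6 of them called lower and 2 higher, with a median of -0.26 and a lowest value of -2.14 at *C1RL*. Around *CFB*, 34 genes were tested, 2 of them called higher and 1 lower, with a median of -0.15. Around *CFI*, 1 of 6 tested genes was called lower, and 0 were called around *CD59*, *CD46* and *CD55*, where 6, 3 and 3 were tested. *CD46* and *CD55* lie within 431 kb of each other, with *CR1* and *CR2* between them. *CR1* had 1 read in all in TPC-1 against 15 in *RRM2*-OE-TPC-1, and *CR2* 1 read over all 6 libraries. Beside *CFB*, *C2* had 6 reads in all in TPC-1 against 9 in the infected cells, and the near-identical copies *C4A* and *C4B* had 16 and 0 reads in TPC-1 against 6 and 4 reads in the infected cells.

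**Figure D4:**
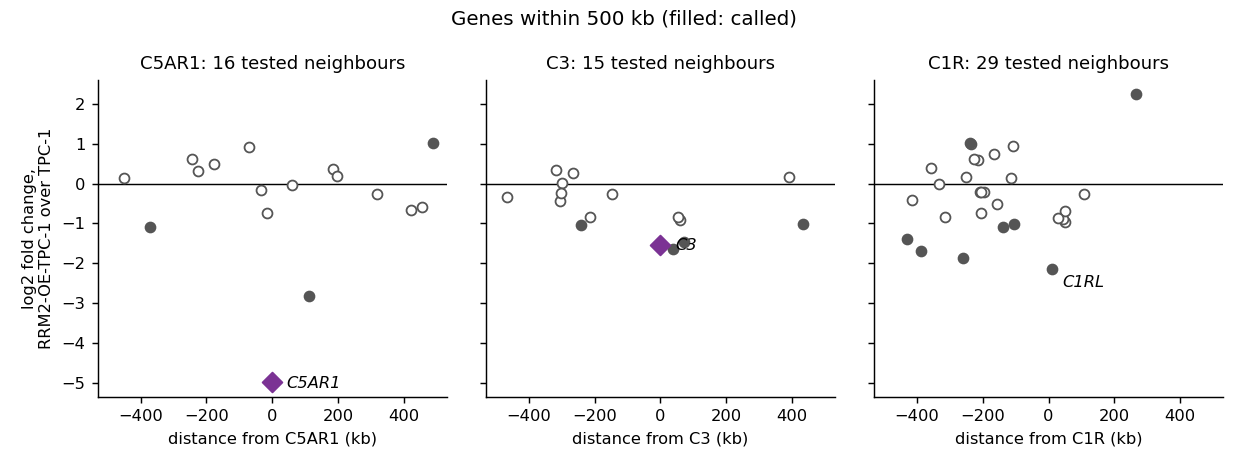
Log2 fold change of *RRM2*-OE-TPC-1 over TPC-1 for tested genes within 500 kb of *C5AR1*, *C3* and *C1R*, against distance in kb, with called genes filled and *C5AR1* and *C3* as diamonds (*C1R* was below the minimum). *C5AR1* at -4.98 lies apart from its 16 neighbours, the lowest of which is at -2.82.

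The genes with the most similar profile were ranked by the Euclidean distance of centred log2(FPKM + 0.1) values over the 6 libraries. Nearest to *C5AR1* among tested protein-coding genes were *CRTAM*, *EPPIN*, *WFDC6*, *CDH16* and *NOX5*, at distances of 0.518 to 1.27. *CRTAM* averaged 13.8 FPKM in TPC-1 against 0.449 in *RRM2*-OE-TPC-1, and *NOX5* 20.4 and 1.22 FPKM. *EPPIN* and *WFDC6* both lie on chromosome 20, and none of the 5 lies on chromosome 19 with *C5AR1*. Nearest to *C3* were *PPARA*, *LEMD1*, *ABCA1*, *SLC22A23* and *ATP8A1*, at distances of 0.0756 to 0.114. *ABCA1* averaged 47.1 FPKM in TPC-1 against 16.1 in *RRM2*-OE-TPC-1. With 6 libraries in 2 groups, such likeness reflects mainly the difference between the groups.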

How the data were processed

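mRNA of 3 TPC-1 and 3 *RRM2*-OE-TPC-1 libraries was sequenced. The methods describe poly(A) selection, whereas the labels describe ribosomal RNA removal and RNase R digestion. The authors trimmed reads with fastp, aligned and counted them per gene, and deposited FPKM, that is counts divided by gene length and depth. The submitters' processing notes name HISAT2 2.0.5, featureCounts 1.5.0, DESeq2 1.20.0 and GRCh38.p14. A directional kit was used, and the strand setting in counting is not given in the sources used here. All 58735 identifiers, positions and gene lengths were those of GENCODE 29.

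Values were analysed as log2(FPKM + 0.1) with limma 3.58.1 (lmFit, eBayes with trend, Benjamini-Hochberg adjustment over all genes tested) in R 4.3.3. Genes with at least 0.5 FPKM and 10 recovered reads in 3 libraries were tested, and a call needed an adjusted p of at most 0.05 together with a log2 fold change of at least 1 in either direction. Simulated data for this comparison had a fixed dispersion of 0.005 (spread beyond counting error) and 200 changed genes, where 1560 were called in the real data. With 13520 genes tested, 92.9% of 98 genes changed 2.5-fold and 98.9% of 95 genes changed 4-fold were called, and 1 unchanged gene. These shares hold for that setting only and leave out changed genes under the minimum. Ratios of pooled reads over the authors' depth have exact conditional 95% intervals. Python 3.11.15 with pandas 2.3.3, scipy 1.17.1 and matplotlib 3.10.9 was used.

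The 9 genes, the gene lists and the tests were chosen with earlier results of these data known. Named are the 9 genes, other complement genes above the minimum, called genes of the other lists, *RRM2*, complement genes within 500 kb of a gene of the 9, and the 5 nearest profiles of *C5AR1* and *C3*. Genes named to describe an overlap, a marker, a gene at 0 or a limit of the filter are outside this rule. Some genes that the rule and the lists would cover are not reported here and were taken out of the lists. Alternatives were pseudocounts of 1 and 0.01, no filter, the FPKM minimum alone, library totals, median-of-ratios scaling, voom on recovered reads, a block for the replicate number, omission of each library in turn, and adjusted p alone.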

Additional observations from a re-analysis of the deposited data

How the results depend on the processing

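The differences of *C3*, *CD46*, *CD55* and *CD59* stayed within -1.58 to -1.51, -0.25 to -0.15, 0.04 to 0.16 and 0.33 to 0.43 on the log2 scale over 14 alternatives each. That of *C5AR1* was -3.002 with a pseudocount of 1, -5.56 with 0.01 and -5.54 with voom. Without any 1 of the TPC-1 libraries, *C5AR1* fell under the minimum of 3 libraries and was not tested, so that the number of the 9 genes past both thresholds ran from 1 to 2 when a library was left out. It was 4 of 9 with no filter on low values, where *C1R* and *CFI* were added. These 2 had 1 to 7 reads per *RRM2*-OE-TPC-1 library. That setting called 920 genes higher and 1361 lower of 30958. At the adjusted p alone the count was 4 of 5, beside 67.6% of all tested genes. The 9 genes were chosen on this contrast, so nothing is read from these counts.

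Of the other complement genes, 2 were called lower with a pseudocount of 1 (*C1RL* and *CLU*) and 7 at the adjusted p alone. With no filter 1 was called higher (*C4BPB*), and at the adjusted p alone 2. Leaving out a library gave 4 lower and 0 higher throughout. *C8G* ran from -0.78 to 0.059 when a library was left out and turned positive without *RRM2*-OE-TPC-1 replicate 1. Acute phase genes called higher numbered 1 with a pseudocount of 1 and 1 to 2 when a library was left out. Those called lower numbered 1 with no filter (*HP*) and 1 at the adjusted p alone (*SERPINA1*). GPI anchor genes called lower numbered 2 with library totals, 1 with a pseudocount of 0.01, 1 with voom, 0 to 2 when a library was left out and 9 at the adjusted p alone, where 6 were higher. Genes of the *C5AR1* signalling list and chemoattractant receptors called lower numbered 1 with a pseudocount of 1 and 1 to 2 when a library was left out. At the adjusted p alone 7 were higher, *GRK5* among them, and 3 lower. Over all tested genes, a pseudocount of 1 gave 716 calls in place of 1560.

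The replicate numbers did not pair the libraries, with correlations of -0.01, -0.01 and -0.06 between the deviations of replicates with the same number. With the replicate number as a block, 4 other complement genes were called lower and 2 of the 9 genes passed, as without it, and the limma adjusted p of *ITGB2* was 0.0544. The depth limits *C1R*, *C1S*, *CFI* and *CFB*, which have 0 to 32 reads per library.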
